A study of Mus musculus with 6 samples.

Results

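The 8 genes described here encode the isoforms of troponin. They are the slow skeletal, fast skeletal and cardiac troponin I genes Tnni1, Tnni2 and Tnni3, the slow skeletal, cardiac and fast skeletal troponin T genes Tnnt1, Tnnt2 and Tnnt3, and the troponin C genes Tnnc1 and Tnnc2. They were found by symbol, and all 8 were among the 15118 genes of the table. The family was chosen by the measured RPKM of its genes in the mutant and control hearts, with the difference in Tnni2 already known, so these values are given as a description. The RNA sequenced was that of the whole heart, taken at E12.5 from embryos of the Black-Swiss strain. The 3 Hif1a mutant hearts (numbers 5, 8 and 10) carried 1 null and 1 loxP-flanked (floxed) Hif1a allele, and the 3 control hearts (numbers 2, 5 and 9) carried 1 wild-type and 1 floxed allele. HIF1, the transcription factor that answers low oxygen, takes its oxygen-sensitive chain from Hif1a. All 6 embryos also carried Cre recombinase at 1 copy of Nkx2-5, a gene active in cardiac progenitors and heart muscle. Recombination is thus directed to that lineage, and its extent was not checked here. Cells in which the floxed allele has recombined have no functional Hif1a allele in the mutant embryos, against 1 in the control embryos. Cells without recombination have 1 in the mutant embryos, against 2 in the control embryos.

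Troponin sits on the actin thin filament of striated muscle with tropomyosin and makes contraction depend on calcium. Troponin C binds calcium, troponin I holds the filament inactive until it does, and troponin T ties the complex to tropomyosin. Heart and slow skeletal fibres share a single troponin C, while the I and T subunits have a separate gene for heart, slow fibres and fast fibres. The fetal heart is known for using slow skeletal troponin I, which cardiac troponin I replaces around birth.

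The genes for troponin I and troponin T lie in pairs. On mouse chromosome 1 of mm10, in the GENCODE M21 annotation, Tnni1 (135779434 to 135810989, plus strand) is followed after 25364 bases by Tnnt2 (135836354 to 135852260, plus strand). On chromosome 7, Tnnt1 (4504570 to 4516382, minus strand) and Tnni3 (4518305 to 4524229, minus strand) lie 1922 bases apart. Further along the same chromosome, Tnni2 (142441808 to 142444410, plus strand) and Tnnt3 (142498836 to 142516009, plus strand) lie 54425 bases apart. Tnnc1 is on chromosome 14 (31208312 to 31211729, plus strand) and Tnnc2 on chromosome 2 (164777161 to 164779967, minus strand). All 8 are annotated as protein-coding.

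Each gene has its own coding sequence, which bears on whether reads of a low isoform could come from an abundant relative. The longest complete coding sequences of Tnni1 and Tnni2 were identical at 69.6% of 540 aligned bases, those of Tnni2 and Tnni3 at 70.4% of 531, and those of Tnnc1 and Tnnc2 at 70.4% of 479. The 3 pairs within troponin T were identical at 70.0% to 70.7%. The longest run of identical bases between any complete coding sequences of a pair was 22 bases for Tnni1 and Tnni2, 14 bases for Tnni2 and Tnni3, and 21 bases for Tnnc1 and Tnnc2. Parts of the transcripts outside the coding sequence were not compared. No source used here gives the read length. The 60 bases of the coding sequence that Tnni2 shares best with both other troponin I genes are shown 5′ to 3′, with the 43 bases that are the same in all 3 in capitals:
Tnni2, coding bases 394 to 453: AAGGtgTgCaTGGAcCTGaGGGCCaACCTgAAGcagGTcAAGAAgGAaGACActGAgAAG
Tnni1, coding bases 397 to 456: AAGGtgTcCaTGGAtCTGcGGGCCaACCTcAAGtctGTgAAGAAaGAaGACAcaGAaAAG
Tnni3, coding bases 493 to 552: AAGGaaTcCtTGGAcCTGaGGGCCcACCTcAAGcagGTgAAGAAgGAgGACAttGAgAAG
In this stretch Tnni1 had 49 and Tnni3 had 51 of its 60 bases in common with Tnni2. The coding sequences encode 187 residues in Tnni1, 182 in Tnni2 and 211 in Tnni3, the cardiac form being known for an extra stretch at its start.

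Levels are in RPKM, a read count scaled to the length of the exons counted and to the size of the library, so genes can be compared per length. A value covers a whole gene and does not separate its splice forms. The low values of single-exon genes imply between 100800000 reads (mutant 8) and 158300000 reads (mutant 10) a library. With the full exon length of each gene, that comes to about 620 reads for Tnnc2 in control 9, the fewest, and about 3400000 for Tnnt2 in mutant 10, the most. The counting error of Tnni2 was then at most 0.027 (SD) on the log2 scale in any heart. Beyond calling them separate hearts the labels do not say how the samples relate, and a p-value here reflects the spread among these 6. On the first principal component (45.3% of the variance) mutant 8 was farthest to one side and control 2 to the other. Hif1a itself measured 75.7, 55.0 and 77.7 RPKM in mutants 5, 8 and 10 and 61.1, 46.4 and 46.4 RPKM in controls 2, 5 and 9. No source used here names the exons that the null and floxed alleles lack, so this level does not check the deletion. All 11 cardiomyocyte markers were measured, and their summed level was 14455 to 15226 RPKM in mutant hearts and 13556 to 14852 RPKM in control hearts. Myl2, Actc1 and Myl7 make up most of that sum. Single markers went both ways, 7 of the 11 with a positive log2 change. Myl7 averaged 2066 RPKM in mutant and 1550.3 RPKM in control hearts, and Pln 239 and 315 RPKM.

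The heart and slow fibre isoforms were the abundant ones in hearts of both genotypes. In the order of their mean level, the mutant hearts had 2795 ± 233 RPKM of Tnnt2, 1790.4 ± 105 of Tnnc1, 1480.2 ± 68.0 of Tnni1, 428 ± 29.9 of Tnni3, 71.7 ± 17.1 of Tnnt1, 40.3 ± 12.7 of Tnnt3, 18.2 ± 2.80 of Tnni2 and 16.7 ± 6.30 of Tnnc2 (SD, n = 3). The control hearts had 2893 ± 165 RPKM of Tnnt2, 1789 ± 73.8 of Tnnc1, 1408 ± 50.5 of Tnni1, 442 ± 8.98 of Tnni3, 108 ± 8.93 of Tnnt1, 37.2 ± 5.04 of Tnni2, 35.7 ± 9.28 of Tnnt3 and 11.9 ± 6.42 of Tnnc2 (SD, n = 3). The order was thus the same from Tnnt2 down to Tnnt1, and Tnni2 stood below Tnnt3 in the mutant hearts and above it in the control hearts. Neighbours in this order whose hearts overlapped were Tnni2 and Tnnc2, and Tnnt1 and Tnnt3, in mutant hearts, and Tnni2 and Tnnt3 in control hearts. The other neighbouring genes did not overlap in either genotype.

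**Figure D1:**
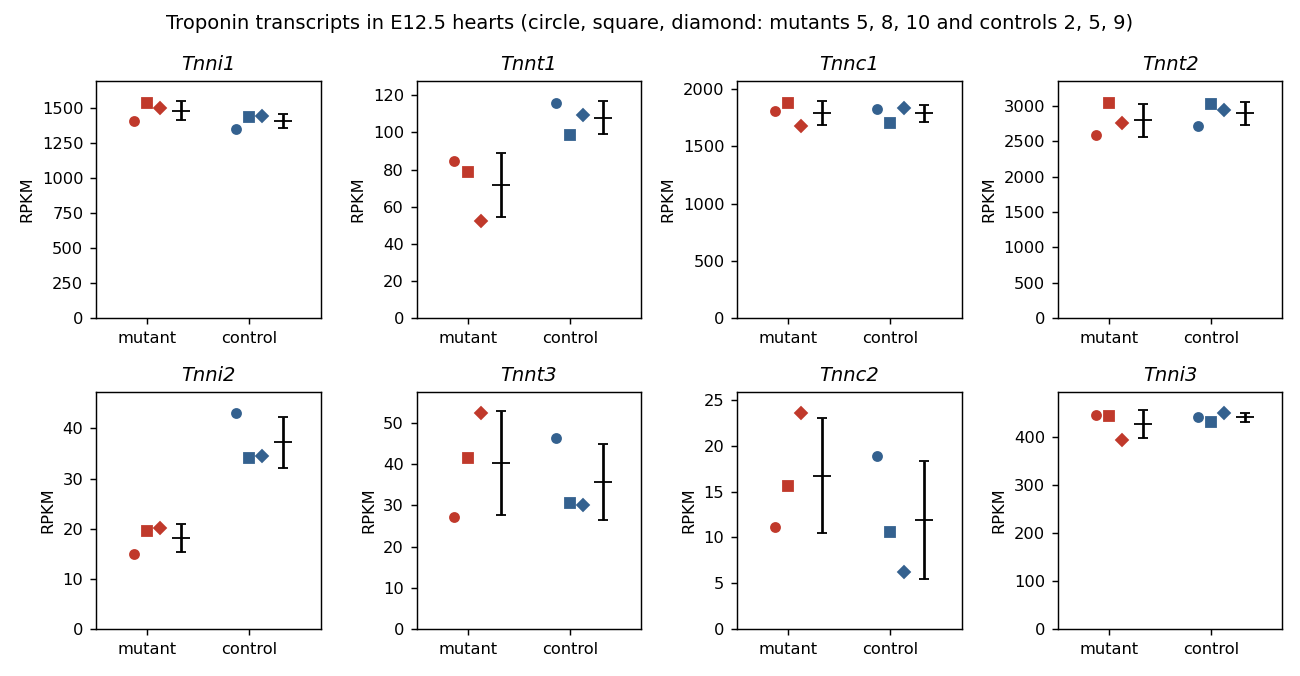
RPKM of the 8 troponin genes in each heart, mutants left of controls, with a circle, square and diamond for mutants 5, 8 and 10 and for controls 2, 5 and 9, and the mean ± SD of 3 hearts beside them. Every axis starts at 0, and the genotypes are apart in Tnni2 (15.01 to 20.2 against 34.2 to 43.0 RPKM) and Tnnt1 (52.2 to 84.5 against 98.4 to 116 RPKM).

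The genotypes were compared with limma on log2(RPKM + 1), a scale on which changes of low genes come out too small, over the 13080 genes that reached 1 RPKM in 3 or more hearts. Every troponin gene passed that filter. A Benjamini-Hochberg adjusted p under 0.05 counted as past the threshold, and 0.818% of the genes tested were past it. Of the 8 troponin genes 1 was, Tnni2. The lower side of the count, 1 of 8 genes, has a background of 0.398%. As the family was chosen with that result known, nothing is read from the count. The median log2 change of the 8 genes was −0.02, against −0.03 over all genes tested.

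Fast skeletal troponin I, Tnni2 (ENSMUSG00000031097), was lower in the mutant hearts. It measured 15.01, 19.4 and 20.2 RPKM in mutants 5, 8 and 10 and 43.0, 34.2 and 34.4 RPKM in controls 2, 5 and 9. The highest mutant heart lay below the lowest control heart, and the ratio of the means was 0.490. The log2 change was −0.99 ± 0.14 (SE, 95% interval −1.30 to −0.68), with a limma adjusted p of 0.012 that is a description of the result the gene was picked for. Without control 2 the limma adjusted p was 0.05 and without control 5 it was 0.061, neither past the threshold, with log2 changes of −0.888 and −1.049, where 0.402% and 0.334% of all genes tested passed. In bulk tissue, fewer cells of a type and less RNA in each cell cannot be told apart.

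Slow skeletal troponin T, Tnnt1 (ENSMUSG00000064179), had the next largest difference on the lower side and did not pass. It measured 84.5, 78.5 and 52.2 RPKM in mutants 5, 8 and 10 and 116, 98.4 and 109 RPKM in controls 2, 5 and 9. The genotypes did not overlap, and mutant 10 stood lowest of the 6 hearts. The log2 change was −0.61 ± 0.17 (SE, 95% interval −0.99 to −0.23, limma adjusted p = 0.20), and without mutant 10 it was −0.399. Tnni2 and Tnnt1 were the 2 of 8 troponin genes whose hearts did not overlap between genotypes, both lower in the mutant hearts, against 9.43% of all tested genes on that side and 17% on either side. As Tnni2 was known to differ when the family was chosen, nothing is read from that count either.

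The remaining fast fibre genes spread widely within each genotype. Tnnt3 (ENSMUSG00000061723), fast troponin T, measured 27.1, 41.6 and 52.4 RPKM in mutants 5, 8 and 10 and 46.4, 30.6 and 30.1 RPKM in controls 2, 5 and 9. Tnnc2 (ENSMUSG00000017300), fast troponin C, measured 11.1, 15.6 and 23.5 RPKM in mutants 5, 8 and 10 and 18.9, 10.6 and 6.26 RPKM in controls 2, 5 and 9. In both genes mutant 10 was the highest heart, control 2 the next, and the genotypes overlapped. The log2 changes were 0.15 (95% interval −0.39 to 0.69, limma adjusted p = 0.84) for Tnnt3 and 0.52 (−0.28 to 1.32, adjusted p = 0.62) for Tnnc2, so differences as large as 1 upward are inside the interval of Tnnc2. The change of Tnnc2 was 0.164 without control 9, 0.254 without mutant 10 and 0.891 without control 2. Tnnc2 shares 592 of its 800 exonic bases with Ube2c, a cell division gene on the opposite strand with 45.9 RPKM in mutant and 40.97 RPKM in control hearts. No source used here says whether counting used strand, so reads of Tnnc2 and Ube2c cannot be told apart there.

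The abundant isoforms differed little between genotypes. Tnnt2 (ENSMUSG00000026414), cardiac troponin T, measured 2582, 3044 and 2759 RPKM in mutants 5, 8 and 10 and 2708, 3025 and 2947 RPKM in controls 2, 5 and 9. Tnni1 (ENSMUSG00000026418), slow troponin I, measured 1405, 1538 and 1497 RPKM in mutants 5, 8 and 10 and 1349.9, 1434 and 1441 RPKM in controls 2, 5 and 9. Their genotypes overlapped. Tnnc1 (ENSMUSG00000091898), the calcium sensor of heart and slow muscle, measured 1813, 1883 and 1676 RPKM in mutants 5, 8 and 10 and 1826, 1704 and 1837 RPKM in controls 2, 5 and 9. Tnni3 (ENSMUSG00000035458), cardiac troponin I, measured 447, 444 and 394 RPKM in mutants 5, 8 and 10 and 443, 433 and 450.4 RPKM in controls 2, 5 and 9. Mutant 10 was the lowest heart for Tnnc1 and Tnni3, and the genotypes overlapped again. The 95% intervals of the log2 change ran from −0.29 to 0.19 for Tnnt2, −0.14 to 0.28 for Tnni1, −0.22 to 0.22 for Tnnc1 and −0.26 to 0.16 for Tnni3, with limma adjusted p between 0.80 and 1. Nisch spans Tnnc1 on the opposite strand without sharing exonic bases, and Dnaaf3 shares 86 of the 2063 exonic bases of Tnni3 on the same strand at 0.604 RPKM in mutant and 0.431 RPKM in control hearts.

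**Figure D2:**
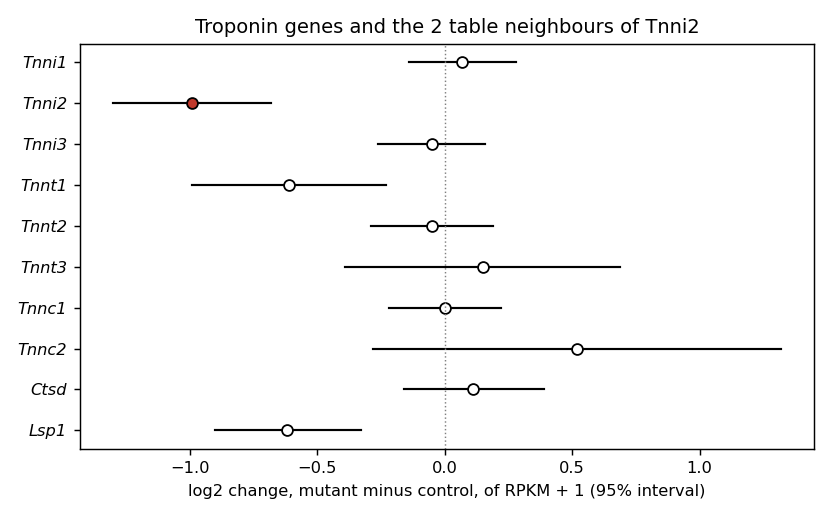
Log2 change of RPKM + 1, mutant minus control, with its 95% interval from limma (6 hearts), for the 8 troponin genes and for Ctsd and Lsp1, the nearest genes of the table on each side of Tnni2. The filled point, Tnni2 at −0.99, is past an adjusted p of 0.05, and the open points are not.

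Shares within a subunit family are ratios inside a heart and do not depend on how the libraries were scaled. Tnni1 made up 76.8 ± 1.53% of summed troponin I RPKM in mutant hearts and 74.6 ± 0.987% in control hearts (SD, n = 3 each). Tnni3 made up 23.9%, 22.2% and 20.6% in mutants 5, 8 and 10 and 24.1%, 22.8% and 23.4% in controls 2, 5 and 9. The fetal slow isoform was thus about 3 times as abundant as the cardiac one, with Tnni1 to Tnni3 ratios of 3.15, 3.46 and 3.80 in mutants 5, 8 and 10 and 3.04, 3.31 and 3.20 in controls 2, 5 and 9, and the genotypes overlapped. Tnni2 was the smallest part, with 0.804%, 0.971% and 1.06% of troponin I in mutants 5, 8 and 10 and 2.34%, 1.80% and 1.79% in controls 2, 5 and 9, and its shares did not overlap between genotypes. Its share is given without a test because it follows from the level the gene was picked for. The shares of Tnni1 and Tnni3 are divided by a sum that holds Tnni2, so they too are given without a test.

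Troponin T was almost wholly cardiac. Tnnt2 held 96.1 ± 0.251% of the family in mutant hearts and 95.2 ± 0.812% in control hearts (SD, n = 3 each). Tnnt1 held 3.14%, 2.48% and 1.82% in mutants 5, 8 and 10 and 4.04%, 3.12% and 3.54% in controls 2, 5 and 9, so that mutant 5 overlapped control 5 by share, unlike by level. Tnnt3 held 1.38 ± 0.416% in mutant hearts and 1.19 ± 0.372% in control hearts (SD, n = 3 each). Tnnc2 held 0.609%, 0.820% and 1.39% of troponin C in mutants 5, 8 and 10 and 1.02%, 0.617% and 0.340% in controls 2, 5 and 9, the rest being Tnnc1. For the shares in troponin T and troponin C, two-sided exact permutation tests gave p between 0.20 and 0.50. A design of 3 against 3 hearts cannot go below 0.10. The shares of Tnnc1 and Tnnc2 add up to the whole, so their tests are the same test. The summed families overlapped between genotypes, with 1927 ± 68.9 RPKM of troponin I, 2907 ± 238 of troponin T and 1807 ± 100 of troponin C in mutant hearts, and 1888 ± 45.9, 3037 ± 148 and 1801 ± 74.7 RPKM in control hearts (SD, n = 3 each).

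**Figure D3:**
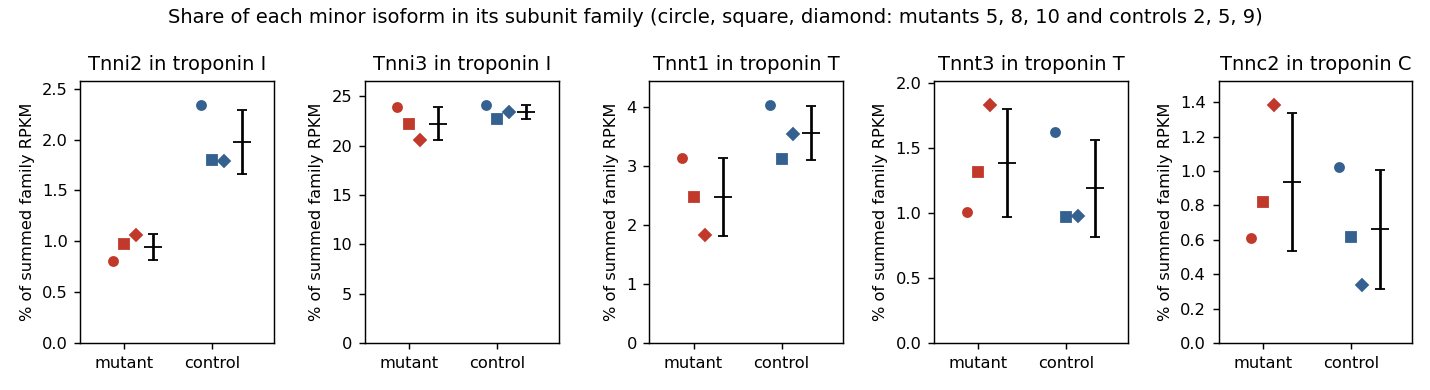
Share of the less abundant isoforms in the summed RPKM of their subunit family in each heart, in percent from 0, with a circle, square and diamond for mutants 5, 8 and 10 and for controls 2, 5 and 9, and the mean ± SD of 3 hearts. Tnni2 holds 0.804% to 1.06% of troponin I in mutant hearts and 1.79% to 2.34% in control hearts, and the other 4 panels overlap.

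The fast isoforms varied together from heart to heart within a genotype. After each genotype's mean was subtracted from log2(RPKM + 1), Tnni2 correlated with Tnnt3 at r = 0.98 and with Tnnc2 at r = 0.85, and Tnnt3 with Tnnc2 at r = 0.89. These are descriptions over 6 hearts that share a library each and leave 4 free values. Without that subtraction Tnni2 correlated with Tnnt3 at 0.10 and with Tnnc2 at −0.19. Mutant 5 was lowest among mutants and control 2 highest among controls for all 3 genes, while the level of Tnni2 was set apart by genotype. The ratio of Tnni2 to Tnnt3 was 0.555, 0.468 and 0.386 in mutants 5, 8 and 10 and 0.927, 1.12 and 1.14 in controls 2, 5 and 9. The ratio of Tnni2 to Tnnc2 was 1.35, 1.25 and 0.858 in mutants 5, 8 and 10 and 2.28, 3.23 and 5.50 in controls 2, 5 and 9. Neither ratio overlapped between genotypes, and the ratio of Tnnt3 to Tnnc2 did, at 2.44 ± 0.224 in mutant and 3.39 ± 1.25 in control hearts (SD, n = 3 each). Both ratios with Tnni2 carry the level that gene was picked for, so their separation is not a separate result.

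**Figure D4:**
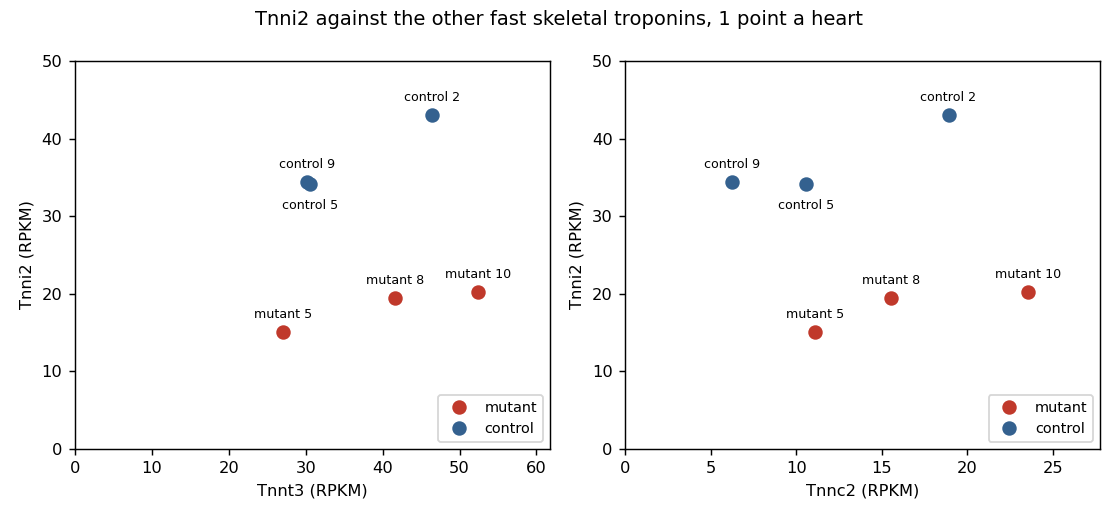
RPKM of Tnni2 (vertical axis) against fast troponin T, Tnnt3 (left), and fast troponin C, Tnnc2 (right), 1 point a heart, mutants red and controls blue. Within each genotype Tnni2 is highest where Tnnt3 is highest, and the mutant hearts lie at 15.01 to 20.2 RPKM of Tnni2, below the control hearts at 34.2 to 43.0 RPKM, at overlapping levels of Tnnt3.

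Mutant 10 was the highest mutant and control 2 the highest control for Tnni2, Tnnt3 and Tnnc2, a pattern that was defined on these genes. It was then counted in the other lists, where 7 of 19 tested genes of skeletal muscle contraction and metabolism had it, 4 of 16 regulators of fibre type and muscle promoters, 2 of 14 thin filament genes and 0 of 11 cardiac thick filament genes. Over all genes tested 8.07% had that pattern. The 7 skeletal muscle genes were Myh1 and Myh4 (fast myosin heavy chains), Myl1 and Mylpf (fast light chains), Actn3 (fast fibre alpha-actinin), Atp2a1 (fast calcium pump) and Pvalb (parvalbumin), named after their values were seen. Mylpf measured 22.4, 23.8 and 33.7 RPKM in mutants 5, 8 and 10 and 27.6, 17.8 and 16.6 RPKM in controls 2, 5 and 9. With the genotype means subtracted, Tnnc2 correlated at r = 0.99 with Myh4 and Tnnt3 at r = 0.95 with Actn3, among the highest values in this list. Other members of the list went otherwise. Ckm (muscle creatine kinase, a heart gene too) stood at −0.78 with Tnni2, −0.81 with Tnnt3 and −0.47 with Tnnc2. Casq1 (a calcium store protein) stood at 0.25, 0.29 and 0.01 with the same genes. The ratio of Tnni2 to Mylpf was 0.695 ± 0.111 in mutant and 1.85 ± 0.264 in control hearts (SD, n = 3 each), without overlap. That ratio too carries the level that Tnni2 was picked for. Of 15 markers of skeletal myogenic cells, 9 (Myod1, Myf5, Myf6, Myog, Pax7, Pax3, Mymk, Chrna1 and Chrng) were absent from the table. Every gene in it has a geometric mean of 0.5 RPKM or more in 1 of the genotypes or both. The other 6 markers summed to 14.0, 16.9 and 25.7 RPKM in mutants 5, 8 and 10 and 23.0, 11.2 and 8.39 RPKM in controls 2, 5 and 9. All 6 (Myh1, Myh2, Myh4, Actn3, Pvalb and Cacna1s) are also in the skeletal muscle list. Myh1, Myh4, Actn3 and Pvalb are among the 7 genes named above, so this sum is not a separate result. The part of these markers in the troponin levels was not tested.

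**Figure D5:**
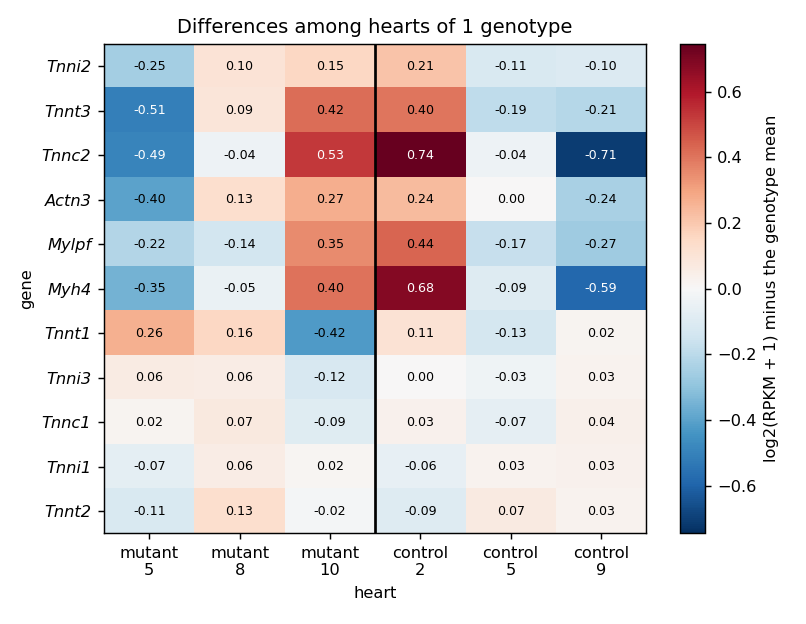
Log2(RPKM + 1) of each gene in each heart minus the mean of its genotype, mutants left of the line and controls right of it. The fast fibre genes in the upper 6 rows are low in mutant 5 (−0.22 to −0.51) and high in mutant 10 and control 2. That order was defined on Tnni2, Tnnt3 and Tnnc2. Actn3, Mylpf and Myh4 are among the 7 of 19 tested skeletal muscle genes that have it, so these rows do not test it. Genes without it, such as Ckm and Casq1, are not shown. Tnnt1 is high in mutant 5 (0.26) and low in mutant 10 (−0.42), and Tnni3, Tnnc1, Tnni1 and Tnnt2 stay within 0.13 of the mean.

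Tnnt1 did not follow the fast genes. With the genotype means subtracted it correlated at r = −0.52 with Tnnt3 and at r = 0.97 with Tnni3, its neighbour on chromosome 7, over the 6 hearts. Tnnc1, on chromosome 14, correlated with Tnnt1 at 0.85 and with Tnni3 at 0.89, so such values were not limited to neighbouring genes. All 3 genes were lowest in mutant 10. The ratio of Tnnt1 to Tnni3 was 0.189, 0.177 and 0.133 in mutants 5, 8 and 10 and 0.262, 0.227 and 0.243 in controls 2, 5 and 9. The genotypes did not overlap in this ratio. Tnni1 and Tnnt2, the neighbours on chromosome 1, correlated at r = 0.95 with the means subtracted.

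The genes around Tnni2 were looked at next. Lsp1, which encodes an actin-binding protein of white blood cells, starts 16399 bases beyond Tnni2 and measured 7.54, 8.98 and 6.13 RPKM in mutants 5, 8 and 10 and 12.1, 11.9 and 12.0 RPKM in controls 2, 5 and 9. The genotypes did not overlap, with a log2 change of −0.62 (95% interval −0.90 to −0.33, limma adjusted p = 0.072), which was past the threshold in 5 of 17 alternatives (adjusted p = 0.038 with protein-coding genes only, where 1.14% of genes passed). The 11 measured macrophage markers each had a negative log2 change, against 5567 positive changes among all 13080 genes. None was past the threshold in limma and 9 had an unadjusted p under 0.05, against 11.2% of all genes tested. They summed to 11.8 to 31.3 RPKM in mutant hearts and 37.3 to 43.7 RPKM in control hearts. Their part in the values of Lsp1 and Tnni2 was not tested. The long non-coding RNA Gm14492, annotated between Tnni2 and Tnnt3 and reaching into the span of Tnnt3, was too low to be tested, at 0.447, 0.505 and 0.695 RPKM in mutants 5, 8 and 10 and 1.06, 1.17 and 0.975 RPKM in controls 2, 5 and 9. It lies on the strand opposite Tnnt3 and shares no exonic base with it. On the other side, 53770 bases away, Ctsd (the lysosomal protease cathepsin D) measured 157 ± 10.9 RPKM in mutant and 146 ± 22.4 RPKM in control hearts (SD, n = 3 each) and overlapped. Lad1, between Tnni1 and Tnnt2, was not tested and measured 0.909 RPKM in mutant and 0.760 RPKM in control hearts.

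No gene among those closest to Tnni2 in pattern was past the threshold in limma. Over the 6 hearts the 5 highest correlations with Tnni2 on log2(RPKM + 1), among 13080 genes, were with Fam109b, Fam114a1, Slc4a4, Smim3 and 1810011O10Rik, at r between 0.980 and 0.992. Of these 1810011O10Rik had the largest log2 change (−0.49, limma adjusted p = 0.053), at 3.51 RPKM in mutant and 5.33 RPKM in control hearts. Fam109b (0.768 and 1.08 RPKM), Slc4a4 (1.84 and 2.35 RPKM) and Smim3 (1.81 and 2.29 RPKM) were lower still in mutant and control hearts. At such levels changes on this scale come out too small. With the genotype means subtracted the 5 highest were C230062I16Rik, 2310030G06Rik, Gm24916, Tnnt3 and Gm22333, at r between 0.980 and 0.990.

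The partners of troponin in the sarcomere had no gene past the threshold in limma. Of 14 tested thin filament genes 0 passed, 4 had an unadjusted p under 0.05 (11.2% of all genes tested) and 7 had a positive change, with a median log2 change of 0.00. The 3 with the smallest p were Nrap, an actin-anchoring protein (8.30 ± 1.17 RPKM in mutant and 12.0 ± 1.42 RPKM in control hearts, limma adjusted p = 0.16), the actin filament elongation factor Lmod2 (21.7 and 26.9 RPKM, adjusted p = 0.22) and the tropomyosin Tpm4 (91.6 and 113 RPKM, adjusted p = 0.27). These 3 were lower in the mutant hearts. The last of the 4, the actin gene Actc1, was higher there (4631 RPKM in mutant and 3833 RPKM in control hearts, limma adjusted p = 0.43). Tpm1, the main tropomyosin here, measured 576 ± 28.6 RPKM in mutant and 569 ± 28.3 RPKM in control hearts (SD, n = 3 each). Of 11 tested cardiac thick filament genes 0 passed and 3 had an unadjusted p under 0.05, with a median of 0.09. These 3 were the myosin-binding protein gene Mybphl (15.2 and 8.85 RPKM in mutant and control hearts, limma adjusted p = 0.15) and the atrial myosin light chains Myl7 (2066 and 1550.3 RPKM, adjusted p = 0.27) and Myl4 (1150.2 and 951 RPKM, adjusted p = 0.36).

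Skeletal muscle genes as a list had no member past the threshold either. Actn2, Ckm and Eno3 in that list are heart genes too, so its values are not those of skeletal muscle alone. Of 19 tested members 0 passed in limma, 3 had an unadjusted p under 0.05 (11.2% of all genes tested) and 15 had a positive change (5567 of all 13080), with a median log2 change of 0.18 against −0.03 over all genes. Muscle creatine kinase Ckm measured 29.9, 24.3 and 20.7 RPKM in mutants 5, 8 and 10 and 36.8, 46.5 and 36.7 RPKM in controls 2, 5 and 9 (log2 change −0.66, limma adjusted p = 0.11, and 0.029 without mutant 5, where 1.53% of all genes tested passed). The calcium store protein Casq1 measured 27.5, 38.1 and 40.3 RPKM in mutants 5, 8 and 10 and 46.3, 60.5 and 59.0 RPKM in controls 2, 5 and 9 (log2 change −0.64, limma adjusted p = 0.15). Ckm and Casq1 were lower in every mutant heart than in any control heart, as 9.43% of all tested genes were, and neither passed. Myoz1, a Z-disc protein, was higher in every mutant heart than in any control heart, with means of 9.08 and 7.58 RPKM in mutant and control hearts, and did not pass (limma adjusted p = 0.44).

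Of 16 tested regulators of fibre type and muscle promoters 0 passed in limma, and 1, Hif1a, had an unadjusted p under 0.05, with a median log2 change of −0.02. The coactivator Myocd measured 6.00 ± 0.368 RPKM in mutant and 7.11 ± 0.809 RPKM in control hearts (limma adjusted p = 0.51), and its partner Srf 17.5 ± 0.911 and 16.0 ± 2.27 RPKM (adjusted p = 0.70; SD, n = 3 each). Hif1a passed without control 2 and mutant 8 (log2 change 0.714, limma adjusted p = 0.013), where 0.751% of all genes tested passed.

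Promoter windows were examined for 6 of the 8 troponin genes, 8 windows of 250 bases before a RefSeq start (GRCm38.p6), Tnni2 and Tnnt3 not being among them. The second window of Tnnt2 lies wholly in annotated exons, and the 2 windows of Tnni1 overlap each other. Those of Tnni1, Tnnc2, Tnnt1 and Tnni3 lie partly in exons. The 8 windows are thus not 8 separate promoters. The core letters that HIF1 binds (ACGTG or GCGTG, on either strand, ACGTG also being part of one form of E-box, CANNTG) occurred in 1 of the 8 windows, the first of 2 for Tnnt2, against 38.6% of all 32851 windows of this length. The core of the M-CAT element known from the cardiac troponin T promoter (CATTCC, either strand) occurred in 2 windows, the same one of Tnnt2 and that of Tnnc1, against 12.6% of all windows. The window of Tnnt2, the most abundant isoform, is shown beside that of Tnnt1, its lower paralogue, 5′ to 3′ along the gene, with both core motifs in capitals and without the 29 bases of the Tnnt1 window that the annotation places in an exon:
Tnnt1, chr7:4516005-4516225, minus strand: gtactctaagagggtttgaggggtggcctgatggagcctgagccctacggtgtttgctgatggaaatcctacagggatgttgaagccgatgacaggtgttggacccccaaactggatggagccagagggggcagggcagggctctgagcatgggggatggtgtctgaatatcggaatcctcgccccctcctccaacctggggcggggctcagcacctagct
Tnnt2, chr1:135836084-135836333, plus strand: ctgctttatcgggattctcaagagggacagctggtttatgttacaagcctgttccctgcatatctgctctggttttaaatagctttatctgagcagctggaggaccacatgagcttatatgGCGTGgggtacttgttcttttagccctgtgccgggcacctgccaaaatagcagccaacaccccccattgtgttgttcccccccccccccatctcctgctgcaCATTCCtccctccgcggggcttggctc
The Tnnt2 stretch has both motifs and the Tnnt1 stretch has neither, which says only that these letters are not in that window.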

How the data were processed

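The authors deposited RPKM, on a linear scale, for 15118 genes in 6 hearts. That unit was read from the values because the header gives none. The submitters' processing notes name Trim Galore, TopHat2 and mm10, all without a version. Which program and annotation the reads were counted with, and whether by strand, is not given in the sources here. Every listed gene has a geometric mean of 0.5 RPKM or more in 1 of the genotypes or both. Low values of single-exon genes fell on whole multiples of a step, within 0.1, in 87.5% to 96.2% of cases, which gave the reads behind each library.

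The test planned for counts was replaced by the planned fallback for RPKM, limma 3.58.1 (run under R 4.3.3) on log2(RPKM + 1) with its trend option, a minimum of 1 RPKM in 3 or more libraries (13080 genes), Benjamini-Hochberg adjustment and no covariates. The fit was tested on simulated data. The members and lists were chosen with earlier results of these data known. Named genes are the 8 troponin genes, Hif1a, table genes beside or between them, the 5 best correlated with Tnni2, and list members past the threshold or the 3 with the smallest p. Any other gene was named after its values were seen. All p-values are two-sided. Of the gene identifiers, 14877 matched GENCODE M21. Alternatives were median centring, rescaling without haemoglobin genes, no filter, a minimum of 5 RPKM, pseudocounts of 0.1 and 5, no trend, a robust prior, protein-coding genes only, each heart left out, and 2 sets of 4 hearts. Python 3.11.15, scipy 1.17.1 and matplotlib 3.10.9 were used. Promoters are from RefSeq.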

Additional observations from a re-analysis of the deposited data

How the results depend on the processing

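Tnni2 kept its direction in all 17 alternatives (log2 change −1.09 to −0.86) and its call in 15, with limma adjusted p between 0.0033 and 0.061. Tnnt1 was negative in all 17 (−0.74 to −0.40) and never passed (limma adjusted p 0.074 to 0.44). Leaving out 1 heart at a time, the number of troponin genes past the threshold ranged from 0 (without control 2 or control 5) to 1. It ranged from 0 to 1 for the cardiac thick filament list (Mybphl without mutant 5) and from 0 to 1 for the skeletal muscle list (Ckm without mutant 5). In the 4 hearts left without the ends of the first principal component, 1 regulator (Hif1a) passed. Log2 changes near 0 changed sign, the cause not being tested. Tnnc1 was 0.00 as reported, −0.037 to 0.047 with 1 heart left out, −0.043 after rescaling without haemoglobin genes, −0.021 without the component's ends and −0.017 in the 4 hearts expressing chromosome Y. With 1 heart left out Tnni3 ranged from −0.080 to 0.011, Tnnt2 from −0.115 to 0.004 and Tnnt3 from −0.058 to 0.405, while Tnnc2 stayed positive (0.164 to 0.891), and Tnnt3 was −0.000 in those 4 hearts. The share difference of Tnnt3 was −0.0283 to 0.410 percentage points with 1 heart left out. Over all genes tested 107 passed as reported, against 198 without mutant 5, 40 without mutant 10, 52, 43 and 67 without controls 2, 5 and 9, and 53 in the 4 hearts expressing chromosome Y. No paired analysis was run because the labels do not say which samples belong together.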
